A study of Mus musculus with 30 samples.

Results

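Sciatic nerve transection (SNT) cuts the main nerve of the hindlimb, and the libraries described here were made 4 days after it from microglia of the lumbar spinal cord, where that nerve's fibres end. They were taken by their title: the 2 libraries labelled SNT_4dpi (days post injury, dpi) were set against the 9 libraries titled as controls, 11 of the 30 mouse libraries of the series. All mice were C57BL/6J. The SNT_4dpi mice had the transection alone. Of the controls, 2 libraries came from naive mice with neither injury nor treatment, 4 from mice given saline on the schedule of a fixed morphine regimen, and 3 from mice given saline on the schedule of an escalating one. No sham operation is named in the labels, and neither are the age of the mice or the side of the cord. Other SNT libraries, used for comparison between days, were made at 1, 2 and 7 dpi with 2 libraries each. Cells were isolated by CD11b, an integrin subunit that neutrophils and monocytes share with microglia, from cords of perfused mice. Whether the libraries of a group come from different mice is not stated, and p-values thus reflect only the variation among the fitted libraries, part of which may be technical. The fit also held libraries made after chronic constriction injury (CCI, 2 and 7 dpi) and spared nerve injury (SNI, 7 dpi), which are not described here.

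Microglia are the macrophages that live within the brain and spinal cord. When a peripheral nerve is cut, the injured sensory and motor neurons release signals in the cord, among them colony stimulating factor 1 and extracellular ATP, which microglia sense through CSF1R and purinergic receptors. In rodents spinal microglia are known to respond by dividing and by changing expression of genes linked to pain hypersensitivity, such as the ATP-gated channel P2rx4, the factors Irf8 and Irf5 and the protease Ctss. The question put to the libraries was how these cells differed from controls 4 days after the cut.

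Expression is given as FPKM (fragments scaled to the transcript's length in kilobases and to the number mapped in the library), and differences are on the scale of log2(FPKM + 1), which understates changes of low genes. The 2 SNT_4dpi libraries had 9617 and 9766 genes at 1 FPKM or more, inside the control range of 9215 to 10068. Depth, read from the steps between low FPKM values, was such that 1 fragment on a transcript of 1 kb was worth 0.186 and 0.114 FPKM in SNT_4dpi and 0.0496 to 0.507 FPKM in the controls, a smaller value meaning a deeper library. The correlation of log2 values between the 2 SNT_4dpi libraries was 0.952, and each correlated with the controls at 0.887 to 0.963. In 6684 genes averaging at least 5 FPKM, 31 lay more than 2 log2 units apart between the SNT_4dpi libraries, against 27 to 463 between pairs of controls. The pair was therefore among the closer ones, and SNT_4dpi did not stand outside the spread of the controls.

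No gene passed the threshold at 4 dpi. The limma test over 11759 genes gave 0 calls at an adjusted p under 0.05, which is 0% of genes, and the lowest adjusted p was 1. Before adjustment, 275 genes (2.34%) had p under 0.05, of which 164 were higher (1.39%) and 111 lower (0.944%). With no difference in any gene, a share of about 0.05 of all genes would fall there, more than was seen. The spread behind these p-values was shared over all 23 fitted libraries, other injury groups included. The counts therefore depend on libraries outside this contrast. In 281 genes (2.39%) both SNT_4dpi libraries exceeded all 9 controls, and in 136 (1.16%) both lay below them. The differences were balanced, with 53.1% of them positive and a median of 0.03. All values below are descriptions of genes that did not pass, and the adjusted p of each gene against the controls was 1 (limma).

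Cells in the SNT_4dpi libraries carried the markers of microglia at the level of the controls. P2ry12, the ADP receptor that guides microglial processes, stood at 1243 and 1341 FPKM, against a lowest of 804, a median of 1061 and a highest of 1441 FPKM in the controls. Its difference was 0.32, with a 95% interval of -0.35 to 0.99 (limma). Tmem119, a microglial surface protein gene, stood at 1237 and 939 FPKM against 572 to 1443 FPKM with a median of 1044, and differed by 0.03 (interval -0.85 to 0.91). Both genes overlapped fully with the controls. Cx3cr1, the receptor for the neuronal chemokine fractalkine, stood at 988 and 1159 FPKM within the control range of 727 to 1406 FPKM. Csf1r, the receptor for colony stimulating factor 1, stood at 2338 and 2207 FPKM within 1447 to 3185 FPKM. The intervals of the last pair, -0.86 to 0.89 and -0.85 to 1.07, leave room for changes of up to about 1 log2 unit either way.

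Of 24 homeostatic microglial genes 13 had positive differences, and their median of 0.02 lay beside 0.03 for all genes. Cd33, an inhibitory sialic acid receptor, was the one member above all controls, at 143 and 138 FPKM against 66.9 to 135 FPKM. This share, 4.17%, was near the 2.39% of all genes. Gpr34, a lysophosphatidylserine receptor, had 737 and 889 FPKM against a lowest of 359, a median of 531 and a highest of 848 FPKM, so that replicate 1 lay among the controls. Siglech, another sialic acid receptor of microglia, had 799 and 633 FPKM against 292 to 672 FPKM. The purinergic list, which covers ATP and adenosine receptors and the enzymes that degrade ATP, was positive in 8 of 16 cases (median 0.02).

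Genes tied to pain after nerve injury gave no common direction. Of 39 tested genes of this list 21 were positive, with a median of 0.03. P2rx4 stood at 35.4 and 31.8 FPKM, with controls at a lowest of 21.0, a median of 25.0 and a highest of 43.9 FPKM. Irf8, the transcription factor upstream of several of these genes, stood at 105 and 157 FPKM against 90.9 to 219 FPKM, with a median of 145. Neither could be separated from the controls, and the intervals of their differences ran from -0.53 to 1.02 and from -0.86 to 0.71. Bdnf, the growth factor gene often tied to this response, was under the filter on low values and was not tested.

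In this list 3 genes (7.69%) lay above all controls, beside 2.39% of all genes. Irf5, a factor that acts downstream of Irf8, had 168 and 182 FPKM against 104 to 159 FPKM, with a median of 140 and a difference of 0.33 ± 0.34 (SE). Ctss, the secreted protease cathepsin S, had 8023 and 7461 FPKM against 4861 to 7358 FPKM, with a median of 6508 and a difference of 0.34 ± 0.32. Il18, a cytokine of the interleukin-1 family, had 33.2 and 28.1 FPKM against 11.0 to 24.9 FPKM, with a median of 19.2 and a difference of 0.77 ± 0.44. In all 3 genes the gap between the lower SNT_4dpi library and the highest control was small beside the spread of the controls. Unadjusted p-values were 0.336, 0.294 and 0.0950 (limma). Kcnn4, a calcium-activated potassium channel of microglia, lay on the other side at 0.382 and 0.351 FPKM against a lowest of 0.274, a median of 1.78 and a highest of 6.58 FPKM, so it overlapped. Itgam, which encodes CD11b itself, stood at 211 and 216 FPKM within 98.8 to 390 FPKM.

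Receptors and ion channels outside that list held a few genes beyond the control range in both SNT_4dpi libraries. Fcgr3, an activating receptor for antibodies, had 1151 and 1248 FPKM against a lowest of 480, a median of 754 and a highest of 959 FPKM. The difference was 0.72 ± 0.32 (unadjusted p = 0.0366, limma). On the list of Fc receptors it was the one member of 9 tested above all controls (11.1%, beside 2.39% of all genes). The naive libraries were the lowest controls, at 480 and 512 FPKM, and SNT_7dpi replicate 1 reached 1234 FPKM while replicate 2 had 463 FPKM. Orai1, the pore of the store-operated calcium channel, had 21.0 and 25.5 FPKM against 32.1 to 105 FPKM, with a median of 42.5. Trpm7, a channel with a kinase domain that conducts magnesium, had 8.82 and 11.3 FPKM against 3.36 to 8.52 FPKM, with a median of 5.21. Of 27 tested ion channel genes 1 (3.70%) lay above all controls, beside 2.39% of all genes, and 2 (7.41%) lay below them, beside 1.16%. The other low one, Cacna1a, a calcium channel subunit gene named here after its values were seen, had 0.0479 and 0.0294 FPKM in SNT_4dpi and 0.0651 to 0.688 FPKM in the controls. Its SNT_4dpi values were under what 1 fragment on 1 kb was worth, and no control reached 1 FPKM, so it lay near the floor.

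Neutrophil markers were low in SNT_4dpi beside the saline controls and similar to the naive ones. All 17 tested markers of the list had lower values in SNT_4dpi than the control mean, with a median of -1.16, beside 0.03 for all genes. Both replicates had list means (6.34 and 6.37) next to those of the naive libraries (6.28 and 6.25). Summed over the list, SNT_4dpi had 7585 and 7799 FPKM, and the controls ran from 6049 to 65383 FPKM with a median of 15953. None of the 17 was at 0 in both SNT_4dpi libraries. Ngp, a granule protein of neutrophils, had 724 and 600 FPKM against a lowest of 860, a median of 1402 and a highest of 4509 FPKM. Lcn2, the iron-binding granule protein lipocalin 2, had 303 and 252 FPKM against 312 to 2299 FPKM, with a median of 627. Ltf, which encodes lactoferrin, made the third marker below all controls (3 of 17, 17.6%, beside 1.16% of all genes).

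The size of this shift depended on which controls were used. Against the 2 naive libraries alone the median was 0.09 with 12 of 17 members positive, against fixed-regimen saline it was -1.36, and against escalating-regimen saline -1.23. Without the 4 controls with the highest neutrophil list means, all of them saline libraries, it was -0.20. That alternative was chosen after the data were seen. Monocyte markers were arranged alike, with 2 of 13 positive, a median of -0.31 against all controls and 0.00 against naive. Ly6c2, a surface protein gene of classical monocytes, had 39.5 and 44.7 FPKM against 46.2 to 304 FPKM. In bulk RNA of selected cells, fewer cells of a type and less RNA per cell cannot be told apart. Genes that neutrophils and microglia share can move with these markers, and that part was not tested.

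**Figure D1:**
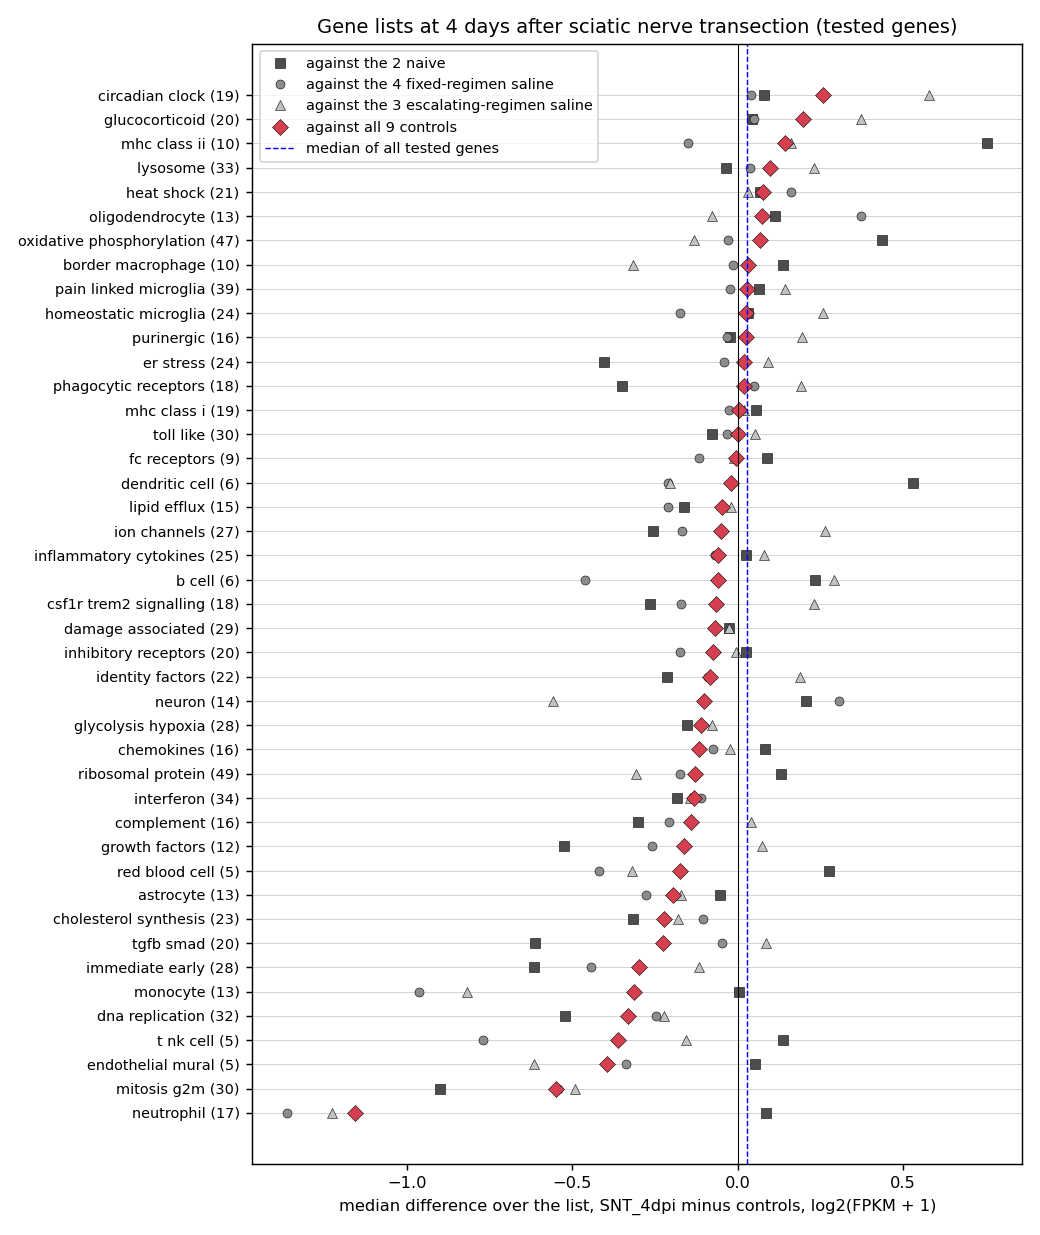
Median difference of each gene list between SNT_4dpi and the controls on the log2(FPKM + 1) scale, against all 9 controls (red diamonds) and against each kind of control (grey symbols), for lists with 5 or more tested genes (number in brackets); the blue dashed line is the median of all tested genes. The neutrophil median lies at -1.16 against all controls and at 0.09 against naive controls alone, whereas the mitosis median is negative against each kind.

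Genes of cell division were low at 4 dpi. All 30 tested genes of mitosis and G2 had negative differences, with a median of -0.55. No member passed, and 3 (10%) lay below all 9 controls, beside 1.16% of all genes. Birc5, the chromosomal passenger protein survivin, had 3.64 and 1.06 FPKM against a lowest of 4.00, a median of 10.1 and a highest of 21.6 FPKM (difference -1.69 ± 0.84, unadjusted p = 0.0581, limma). Top2a, the topoisomerase that untangles sister chromatids, had 1.61 and 0.963 FPKM against 1.71 to 13.5 FPKM, with a median of 4.53. Mki67, which encodes the proliferation marker Ki-67, had 0.463 and 0.357 FPKM against 0.949 to 8.24 FPKM, with a median of 1.21. The Mki67 values in SNT_4dpi were a few times what 1 fragment on 1 kb was worth. On a longer transcript the same FPKM stands for more fragments, and the fragments on Mki67 were not counted.

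As a list the mitotic genes did not set SNT_4dpi apart. The mean of log2(FPKM + 1) over the list was 1.17 and 0.89 in SNT_4dpi, while the controls ran from 1.00 to 2.84 and 3 of them lay at or under 1.12. The negative sign held against each kind of control, with medians of -0.90 against naive, -0.54 against fixed-regimen and -0.49 against escalating-regimen saline. Cdc20, an activator of the anaphase ubiquitin ligase, was listed at 0 in both SNT_4dpi libraries and in 4 of the controls, and Kif20a and Ttk were at 0 in both SNT_4dpi libraries too. The 32 DNA replication genes had 8 positive members and a median of -0.33, and among them Rrm2, a subunit of ribonucleotide reductase, had 1.03 and 2.93 FPKM against 3.43 to 18.6 FPKM. The other SNT days had mitotic list means of 0.593 to 1.37, so that SNT_4dpi lay within their range. Without the 4 controls with the highest neutrophil list means, the mitotic median was -0.47 and 2 of 30 genes were positive.

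Promoters of the mitotic genes whose libraries did not overlap with the controls, together with that of Cdc20, are shown because mitotic promoters share 2 known elements. One is the cell cycle genes homology region, TTTGAA, bound by the MuvB core of the DREAM complex, and the other the CCAAT box, bound by NF-Y. Each sequence is the 120 bases before the start site in RefSeq (build GRCm38.p6), read 5′ to 3′ on the strand of the gene, with both elements in capitals on either strand (TTTGAA or TTCAAA, and CCAAT or ATTGG). No match overlapped another in these windows.
Top2a, chr11:99024190-99024309, minus strand: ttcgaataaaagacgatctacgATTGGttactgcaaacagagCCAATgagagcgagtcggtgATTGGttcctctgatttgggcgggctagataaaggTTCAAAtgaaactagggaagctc
Mki67, chr7:135716380-135716499, minus strand: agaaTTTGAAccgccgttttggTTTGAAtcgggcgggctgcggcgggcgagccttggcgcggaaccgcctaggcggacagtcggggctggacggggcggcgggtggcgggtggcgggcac
Birc5, chr11:117849117-117849236, plus strand: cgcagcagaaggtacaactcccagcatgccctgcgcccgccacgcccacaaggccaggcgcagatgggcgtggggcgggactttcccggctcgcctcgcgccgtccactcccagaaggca
Cdc20, chr4:118437344-118437463, minus strand: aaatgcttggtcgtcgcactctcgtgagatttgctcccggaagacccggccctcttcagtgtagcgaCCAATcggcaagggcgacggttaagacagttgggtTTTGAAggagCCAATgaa
Over the 250 bases before the start site, TTTGAA was found in 8 of 25 mitotic promoters (32%) and in 10.5% of 9031 promoters of tested genes. CCAAT was found in 20 of 25 (80%), against 36.9%, and both in 7 (28%), against 4.23%. Among the replication genes, 3 of 27 promoters (11.1%) held TTTGAA and 15 (55.6%) CCAAT. The windows shown for Top2a and Cdc20 hold both elements, that of Mki67 holds a pair of TTTGAA elements, and Birc5 has no match in its window.

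**Figure D2:**
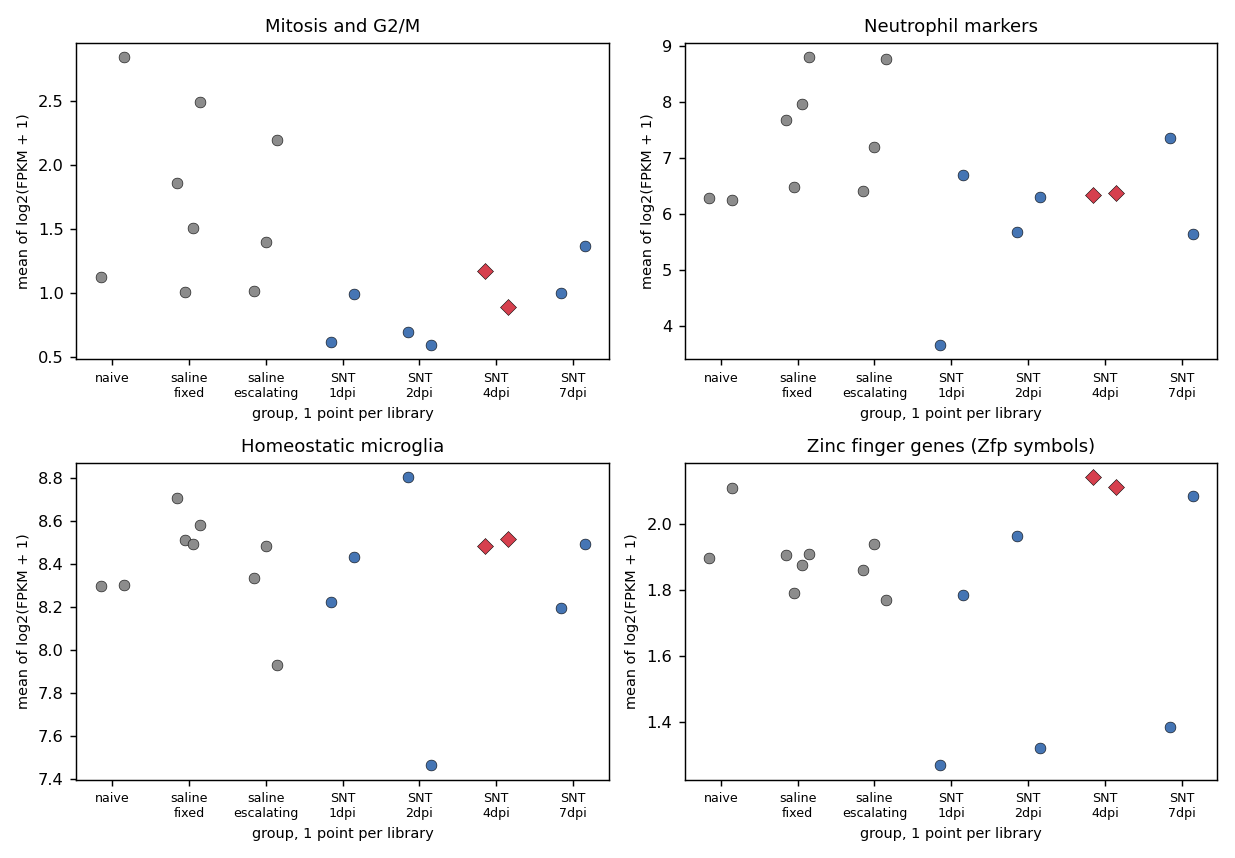
Mean of log2(FPKM + 1) over 4 gene lists in each library of the controls (grey), SNT_4dpi (red diamonds) and the other SNT days (blue). For mitosis the SNT_4dpi values of 1.17 and 0.89 overlap the lowest controls, for neutrophil markers they sit beside the naive libraries, and for zinc finger genes they lie at 2.14 and 2.11, at the upper end.

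Zinc finger genes lay more often above than below the controls. This group, all tested genes with a symbol of Zfp and a number, was chosen after its values had been seen, so its counts are descriptions. Most encode sequence-specific DNA-binding proteins, many of them KRAB repressors of transposable elements. Of 301 genes 207 had positive differences, with a median of 0.21. Both SNT_4dpi libraries exceeded all controls in 25 (8.31%), beside 2.39% of all genes, and 0 lay below them. The mean of the list was 2.14 and 2.11 in SNT_4dpi and 1.77 to 2.11 in the controls, the highest being naive replicate 2. With each kind of control the median stayed positive, at 0.10 against naive, 0.23 against fixed-regimen and 0.26 against escalating-regimen saline.

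The 25 zinc finger genes above all controls differed in level and in how close the SNT_4dpi libraries were. Zfp280c, for example, had 3.38 and 3.43 FPKM, while Zfp429 had 10.1 and 5.68 FPKM and Zfp931 1.59 and 3.85 FPKM. Zfp788 (chromosome 7, 41633531 to 41650881, GRCm38.p6) had 6.38 and 5.40 FPKM against controls at 0 to 2.90 FPKM with a median of 1.98. Its difference of 1.37 ± 0.39 had an unadjusted p of 0.00175 (limma). Zfp760 (chromosome 17, 21707430 to 21725636) had 4.92 and 5.48 FPKM against 0.814 to 3.12 FPKM, with a median of 1.86. For both genes the lower SNT_4dpi library was well above the highest control. Zfp809, which silences integrated retroviruses in embryonic cells, had 16.0 and 12.6 FPKM against 4.47 to 9.63 FPKM, with a median of 7.65. Zfp62 had 20.1 and 21.6 FPKM against 8.58 to 16.8 FPKM. Zfp207, a spindle and splicing protein gene, was the most abundant of the 25, at 66.8 and 84.0 FPKM against 35.8 to 62.6 FPKM.

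Other higher genes were named by p. The rule for naming took the lowest p among genes without overlap that averaged at least 5 FPKM, of which there were 214 higher and 67 lower. Pnrc2 (chromosome 4, 135870917 to 135873846), a cofactor of mRNA decapping, had 72.0 and 71.3 FPKM against a lowest of 20.9, a median of 34.0 and a highest of 55.6 FPKM. This was a difference of 1.01 ± 0.35 (unadjusted p = 0.00892, limma). Tra2b (chromosome 16, 22244552 to 22266005), a splicing activator, had 43.0 and 41.9 FPKM against 22.6 to 32.3 FPKM, a difference of 0.63 ± 0.23. Wdr61 (chromosome 9, 54717153 to 54734549), a subunit of the PAF1 and Ski complexes, had 42.2 and 37.9 FPKM against 15.9 to 28.4 FPKM, a difference of 0.79 ± 0.27. In each of these 3 genes the SNT_4dpi libraries lay close together and above every control.

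The remaining higher genes named by the rule were less even. Tasp1, the protease that cleaves the histone methyltransferase MLL, had 7.44 and 3.98 FPKM against 0.191 to 2.97 FPKM. Arl6, a small GTPase of the primary cilium, had 8.60 and 4.58 FPKM against 0 to 3.36 FPKM. Tmem230, a membrane protein gene of secretory vesicles, had 40.3 and 30.8 FPKM against 14.3 to 26.4 FPKM. In 2610008E11Rik and 1810014B01Rik, neither with a role given here, the differences were 1.06 ± 0.35 and 1.24 ± 0.45.

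Lower genes named by the rule were led by Fam65b, AB124611 and B430306N03Rik. Fam65b, an inhibitor of RhoA in leukocytes, had 0.614 and 2.29 FPKM against a lowest of 3.01, a median of 7.03 and a highest of 13.6 FPKM (difference -1.65 ± 0.48, unadjusted p = 0.00217, limma). Gnai2 (chromosome 9, 107614125 to 107635391), the inhibitory G protein subunit through which receptors such as P2RY12 signal, had 98.5 and 70.3 FPKM against 116 to 363 FPKM, with a median of 170. The naive libraries were far above the saline ones here, at 363 and 361 FPKM against 116 to 186 FPKM. The difference of -1.07 ± 0.41 over all controls was -2.11 against naive alone. Ifitm1 (chromosome 7, 140967429 to 140969827), an interferon-induced membrane protein gene, had 1.10 and 2.12 FPKM against 3.08 to 49.7 FPKM, with a median of 8.88.

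The lower genes were also set against controls without the most neutrophil-marker RNA. Chil1, a chitinase-like protein gene, had 8.17 FPKM in replicate 1 and in replicate 2 a value just below the lowest control of 13.9 FPKM. Its highest controls, at 62.7 to 80.8 FPKM, were saline_fixed replicates 3 and 6 and saline_escalating replicate 9, which are among the 4 with the highest neutrophil list means. Without those 4 controls the difference of Chil1 went from -1.50 to -0.82, that of Ifitm1 from -2.14 to -1.50, that of Fam65b from -1.65 to -1.44 and that of Gnai2 from -1.07 to -1.25. Cyfip2, a subunit of the WAVE complex that drives actin branching, went from -1.43 to -0.98, and Nfe2, a transcription factor of the blood lineages, from -1.59 to -1.02. The sign of these 6 could not change, since both SNT_4dpi libraries lay below every control, so only the sizes are informative. Gnai2 moved away from 0 and the others towards it. All 4 left-out controls were saline libraries, so the naive ones, in which Gnai2 was highest, made up more of the comparison. Neutrophil-marker RNA and the kind of control thus cannot be told apart in these sizes. The part of the neutrophil markers was not tested further. Fam122a, an inhibitor of the phosphatase PP2A, had 3.30 and 3.77 FPKM against 5.21 to 19.4 FPKM.

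**Figure D3:**
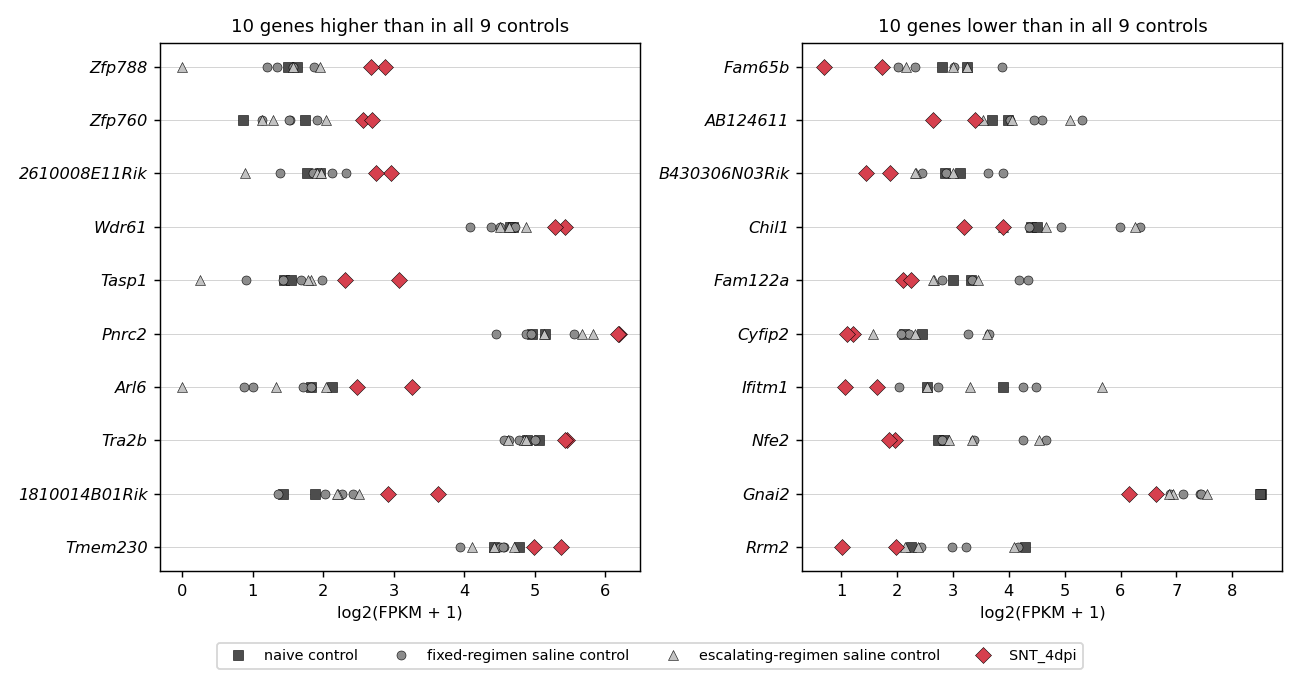
Values of log2(FPKM + 1) in each library for the 10 genes that lay above and the 10 that lay below all 9 controls with the lowest p; red diamonds are SNT_4dpi and grey symbols the 3 kinds of control. In Pnrc2 and Tra2b the SNT_4dpi libraries nearly coincide, while in Gnai2 the 2 naive libraries lie far above the saline ones.

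Inflammatory genes were low or mixed. Of 34 interferon-response genes 13 were positive, with a median of -0.13, and 4 had an unadjusted p under 0.05 in the lower direction (limma), where 0.944% of all genes did. Ifitm3, an antiviral membrane protein gene, had 51.8 and 50.8 FPKM against a lowest of 55.4, a median of 98.1 and a highest of 254 FPKM. Cmpk2, a mitochondrial nucleotide kinase induced by interferon, had 1.46 and 1.61 FPKM against 2.22 to 5.29 FPKM. Both lay below all controls (2 of 34, 5.88%, beside 1.16% of all genes), whereas Irf7 and Ifit1, the other pair, overlapped with them. Over the alternative settings given at the end, the difference of Ifitm3, -1.03, ran from -1.29 to -0.17. That of Cmpk2, -0.88, ran from -1.20 to -0.74. Cytokines showed no shift as a list, with 12 of 25 positive and a median of -0.06. Il1b, which encodes interleukin-1 beta, had 2.25 and 6.54 FPKM against a lowest of 1.21, a median of 6.04 and a highest of 89.9 FPKM. Tnf stood at 1.16 and 4.24 FPKM against 1.30 to 7.07 FPKM, with a median of 2.15, and Ccl2, a chemokine that attracts monocytes, at 0.925 and 1.13 FPKM against 0 to 9.39 FPKM. Il1b and Ccl2 thus lay within a wide control range in both libraries, and Tnf lay just beneath it in replicate 1 and above the control median in replicate 2.

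Immediate early genes, which respond to stimulation within minutes, were positive in 7 of 28 cases (median -0.30). Fos had 3.03 and 2.29 FPKM against 2.27 to 7.51 FPKM, and Jun had 9.48 and 29.7 FPKM against 14.1 to 73.0 FPKM, so both overlapped with the controls. Damage-associated microglial genes were positive in 14 of 29 cases (median -0.07). Apoe, their lipid carrier, stood at 1484 and 1103 FPKM against 591 to 3932 FPKM, with a median of 1092. Cd68, a lysosomal glycoprotein gene, stood at 403 and 381 FPKM within 310 to 507 FPKM.

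Some genes differed strongly between the 2 SNT_4dpi libraries themselves. Cebpb, a transcription factor of inflammatory macrophages, had 0.246 FPKM in replicate 1 and 15.3 FPKM in replicate 2, with controls at 0.705 to 173 FPKM. Tgfb1, the cytokine that maintains microglial identity, had 1.60 and 14.8 FPKM against 2.71 to 74.9 FPKM. Fkbp5, a gene induced by glucocorticoids, went the other way, at 47.8 and 6.70 FPKM against 4.03 to 64.5 FPKM. Sult1a1 and Tsc22d3, which are on the same glucocorticoid list, were also higher in replicate 1 than in replicate 2. Sult1a1, a sulfotransferase gene, had 248 and 127 FPKM against a lowest of 45.7, a median of 67.9 and a highest of 129 FPKM. Tsc22d3, the leucine zipper gene GILZ, had 245 and 77.3 FPKM against 32.1 to 133 FPKM. On this list 13 of 20 genes were positive, and the median of 0.20 was 0.05 against fixed-regimen and 0.37 against escalating-regimen saline.

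Among clock genes 13 of 19 were positive, and their median of 0.26 was 0.08 against naive controls, 0.04 against fixed-regimen and 0.58 against escalating-regimen saline. Arntl, the core activator BMAL1, had 4.68 and 4.58 FPKM against 0.0339 to 4.18 FPKM, with a median of 2.28, and was the one member above all controls (1 of 19, 5.26%, beside 2.39% of all genes). Nr1d2, a repressor in the same loop, had 12.5 and 16.5 FPKM against 2.04 to 18.6 FPKM. The time of day of tissue collection is not in the labels. Of 33 lysosomal genes 25 were positive, and their median of 0.10 was -0.04 against naive controls and 0.23 against escalating-regimen saline.

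Compared with its neighbouring days, SNT_4dpi also gave 0 calls (limma), 0% of genes in each contrast. Against 2 dpi 678 genes (5.77%) had an unadjusted p under 0.05, with 4.7% of all genes higher and 1.06% lower. Against 7 dpi there were 878 (7.47%), with 3.43% higher and 4.04% lower. Against the mean of the 3 other days there were 798 (6.79%), with 5.12% higher and 1.67% lower. Both SNT_4dpi libraries lay above all compared libraries in 21.4% of genes for 2 dpi, 12.1% for 7 dpi and 4.94% for the other days together. They lay below them in 8.07%, 15.9% and 1.32%. The lowest adjusted p was 0.833, 0.141 and 0.532. Among the other SNT libraries, 3 had the fewest detected genes of the series (SNT_1dpi replicate 1 with 8005, SNT_7dpi replicate 1 with 8466 and SNT_2dpi replicate 2 with 8763). In them 1 fragment on 1 kb was worth 0.136, 0.143 and 0.37 FPKM, so they were not all shallow. The counts rest on these libraries and their partners: without SNT_2dpi replicate 1, which leaves the few-gene library alone in its group, the contrast with 2 dpi gave 626 calls. Likewise the contrast with 7 dpi gave 496 calls without SNT_7dpi replicate 2. In these fits the lone library was assumed to vary like the other groups. Without the 3 few-gene libraries each of the other days keeps 1 library, and the balance of unadjusted p under 0.05 changed. It went from 553 higher and 125 lower to 240 and 159 against 2 dpi, and from 403 and 475 to 381 and 1466 against 7 dpi. Against the other days together it turned from 602 higher and 196 lower to 358 higher and 423 lower.

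Several genes were named because both SNT_4dpi libraries lay above every library of the other days, as 4.94% of all genes did. None passed the threshold, and each had an adjusted p of 0.712 against the other days together (limma). Zfp825 (chromosome 13, 74478378 to 74494012) reached 20.4 and 14.5 FPKM at 4 dpi, with 0.412 and 3.23 FPKM measured at 7 dpi and 4.28 to 7.89 FPKM at 1 and 2 dpi. Its difference from 7 dpi was 2.90 ± 0.56 (adjusted p = 0.141, limma), and it overlapped with the controls only through saline_escalating replicate 9, at 15.2 FPKM. Zfp760 had 0.102 and 1.13 FPKM at 7 dpi, a difference of 2.02 ± 0.47 (adjusted p = 0.250). Ivns1abp (chromosome 1, 151344486 to 151364445), a kelch protein gene with a part in splicing, had 426 and 474 FPKM at 4 dpi, against 83.0 to 252 FPKM on the other days and 198 to 319 FPKM in the controls. It therefore lay above all 15 of those libraries. Ms4a6b, a membrane protein gene of myeloid cells, had 78.7 and 44.6 FPKM at 4 dpi and 15.4 to 38.6 FPKM on the other days, but overlapped with controls at 26.7 to 47.6 FPKM.

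**Figure D4:**
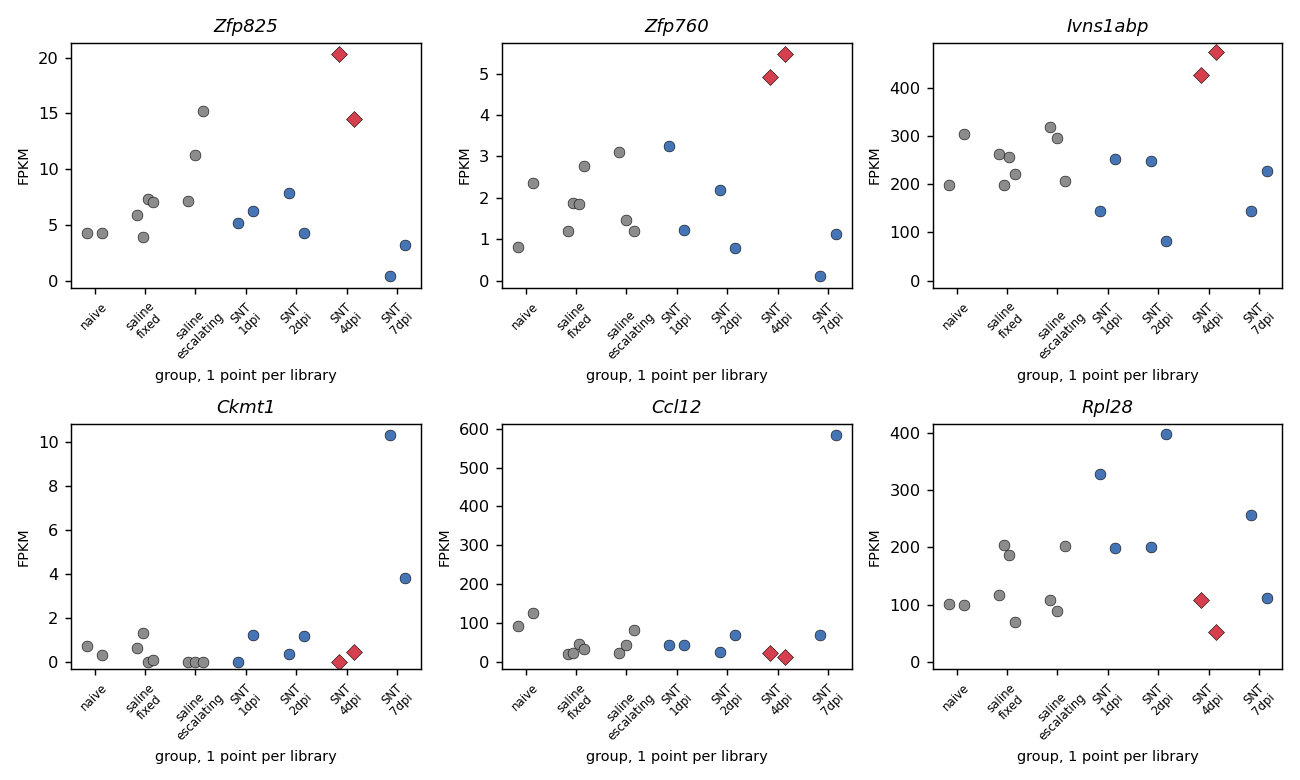
FPKM of 6 genes in each library of the controls (grey), SNT_4dpi (red diamonds) and the other SNT days (blue). Ivns1abp, at 426 and 474 FPKM, lies above all other libraries shown at 4 dpi, whereas Ckmt1 and Ccl12 are lower at 4 dpi than in either 7 dpi library.

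Genes lower at 4 dpi than at 7 dpi included markers of neurons and of glia other than microglia. Ckmt1 (chromosome 2, 121357773 to 121363737), a mitochondrial creatine kinase gene, was listed at 0 and at 0.431 FPKM at 4 dpi, while 7 dpi gave 10.3 and 3.83 FPKM (difference -2.63 ± 0.50, adjusted p = 0.141, limma). Car11, a carbonic anhydrase-related gene expressed in brain, had 0.518 and 0.635 FPKM against 6.34 and 3.71 FPKM. Rspo1, a secreted enhancer of Wnt signalling, had 0.508 and 0.560 FPKM against 8.16 and 4.09 FPKM. Of 14 tested neuronal markers 13 were lower at 4 dpi than at 7 dpi and the other, Nefh, was listed at 0 in the 4 libraries, with a median of -1.23 over the list. Summed, they came to 7.92 and 34.7 FPKM at 4 dpi, to 72.1 and 225 FPKM in the 7 dpi pair and to 3.17 to 90.2 FPKM in the controls. Without the few-gene libraries, which leaves 1 library at 7 dpi, the neuronal median was -1.25, while that of all genes moved from -0.02 to -0.26. Astrocyte markers were lower in 9 of 13 cases, with a median of -1.26, and 8 (61.5%) lay below both 7 dpi libraries, beside 15.9% of all genes. Summed, they came to 82.3 and 77.4 FPKM at 4 dpi, against 201 and 116 FPKM in the 7 dpi libraries and 29.8 to 247 FPKM in the controls. Oligodendrocyte markers were lower in 11 of 13 cases, with a median of -0.12. The part of these cell types in the 7 dpi values was not tested.

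Ccl12 (chromosome 11, 82101845 to 82103399), a monocyte-attracting chemokine gene, stood at 22.6 and 13.4 FPKM, while 7 dpi gave 68.1 and 584 FPKM, a difference of -3.45 ± 0.87 (adjusted p = 0.312, limma). Its controls ran from 20.8 to 126 FPKM, with a median of 42.1, so that SNT_4dpi lay at or below their lower end.

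Ribosomal protein genes were lower at 4 dpi than over the other days in 48 of 49 cases, with a median of -0.85 beside 0.17 for all genes. Rpl28 had 108 and 51.7 FPKM at 4 dpi and 111 to 399 FPKM on the other days, without overlap. The 3 few-gene libraries had the highest ribosomal list means among SNT libraries, at 9.15 to 9.32, and without them 39 of 49 genes were lower with a median of -0.22. The days differed in this setting. Against the remaining 7 dpi library 42 of 49 were higher (median 0.37, beside -0.26 for all genes). Against the remaining 2 dpi library 6 of 49 were higher (median -0.43, beside -0.01 for all genes). Against the controls 10 of 49 were positive and the median was -0.13, and the SNT_4dpi list means of 8.25 and 7.50 lay within the control range of 7.29 to 8.80. Over the other days together, zinc finger genes went the opposite way, with 247 of 301 higher and a median of 0.45. Without the 3 libraries 181 of 301 were higher and the median was 0.12, beside -0.07 for all genes. The all-gene median had been 0.17 with them. Against the remaining 7 dpi library alone, 152 of 301 were higher with a median of 0.005, beside -0.26 for all genes. Against the remaining 2 dpi library 178 were higher (median 0.13, beside -0.01 for all genes). The share of zinc finger genes above all libraries of the other days was 15.6% with the few-gene libraries and 24.9% without them, beside 4.94% and 10.1% of all genes.

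Exact zeros in single genes limited some of the contrasts. Taf10, a subunit of the general transcription factor TFIID, was listed at 0 in both SNT_4dpi libraries. It had 26.0 to 52.4 FPKM in the other SNT libraries and 28.1 to 51.3 FPKM in 7 controls, and was listed at 0 in saline_fixed replicate 6 and saline_escalating replicate 8. Gpank1 was listed at 0 in both SNT_2dpi libraries and in SNT_7dpi replicate 2, and had 10.8 and 8.93 FPKM at 4 dpi. Iah1 and Eif2a, at 26.0 and 20.7 FPKM in replicate 1, were listed at 0 in replicate 2. Such zeros may reflect a failed estimate rather than missing RNA, and no fold is given for these genes.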

How the data were processed

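RNA of CD11b-selected lumbar cord cells was sequenced after Smart-Seq2 and Nextera XT preparation, per the labels' protocols. The authors deposited 1 table of FPKM values for 30 libraries; per the submitters' processing notes, mm10 was the build, and the tools listed are featureCounts 1.4.6, DESeq2, HISAT2 2.0.5.1 and Cufflinks 2.2.1. Which tool and annotation gave the FPKM is not given in the sources used here. Of 24888 rows, 826 with 281 repeated symbols were left out, and genes with at least 1 FPKM in at least 2 libraries were kept (11759).

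Values of log2(FPKM + 1) were fitted with limma 3.58.1 (R 4.3.3) with an intensity trend, in 23 libraries with 15 residual degrees of freedom. Besides the SNT and control libraries these were CCI_2dpi, CCI_7dpi and SNI_7dpi, with 2 libraries each. Each injury group had its mean and the 9 controls shared 1. Tests were two-sided with Benjamini-Hochberg adjustment at 0.05, and were tested on simulated data. The members and the 46 gene lists were chosen with earlier results of these data known. Of 921 list symbols 912 were in the table (5 through RefSeq synonyms) and 798 were tested. For naming, genes needed no overlap and a mean of at least 5 FPKM; the 10 lowest p per direction (5 between days), the 4 lowest of each list and a set of microglial genes could be named. Other genes, such as those listed at 0, those that differed between replicates and the zinc finger genes, were chosen after their values were seen. Depth was inferred from FPKM multiplied by transcript length in genes with 1 transcript: 59.1% to 66.9% of low values lay within 0.1 of a whole number of fragments, against 20% if spread evenly, so it is approximate, and no count test was run. Gene positions and promoters are from RefSeq GRCm38.p6, the assembly that mm10 is based on. Replicate numbers were not used as pairs. Figures were drawn with Python 3.11.15, pandas 2.3.3 and matplotlib 3.10.9.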

Additional observations from a re-analysis of the deposited data

Results flagged for a closer look

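Of 87 groups of control values checked for a library far from the rest, 5 were flagged, and chance flags about 1 in 20. On the log2(FPKM + 1) scale, saline_escalating replicate 9 was lowest for Tmem119 at 9.16 (next 9.87) and for Zfp788 at 0 (next 1.20), and highest for Apoe at 11.9 (next 10.5). Naive replicate 2 was highest for Mki67 at 3.21 (next 1.59). The list mean of cholesterol synthesis was lowest in saline_fixed replicate 5 at 1.98 (next 2.27). Groups of 2 libraries, SNT_4dpi among them, are too small for this check.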

How the results depend on the processing

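Against the controls, alternatives other than 4 kept 0 calls (limma). Without a filter on low values there were 11 calls against the controls, 18 against 2 dpi, 35 against 7 dpi and 14 against the other days. Naive controls alone gave 1 call, Taf10, whose SNT_4dpi values are listed at 0. The fit of all 30 libraries gave 2 calls against 7 dpi, Ckmt1 and Zfp825. Without the 3 libraries with the fewest detected genes there were 2 calls against 2 dpi, 5 against 7 dpi and 1 against the other days. Leaving out each replicate in turn gave 0 to 1 calls against the controls (Plet1os, without SNT_4dpi replicate 2), 0 to 626 against 2 dpi, 0 to 496 against 7 dpi and 0 to 3 against the other days. With a replicate block each of the 4 contrasts gave 1 call, Taf10; correlations of replicate differences between SNT_4dpi and the other groups ran from -0.01 to 0.17, so the numbers were not taken to pair libraries. The cause of these shifts was not tested. The 20 genes named against the controls kept their sign in every alternative that tested them, and 9 of 47 list medians did. For the 20 genes the naming rule set most of this in advance, since both SNT_4dpi libraries lay beyond all 9 controls. Leaving out controls or replicates could not change their sign. In genes near 1 FPKM, 1 fragment on 1 kb (0.186 and 0.114 FPKM in SNT_4dpi) is a sizeable part of the value.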
